A study of Rattus norvegicus with 10 samples.

Results

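The genes described here encode 10 neuropeptides known from the dentate gyrus, namely Sst, Npy, Vip, Cck, Penk, Pdyn, Tac1, Crh, Cort and Nts. They were taken as a named list and looked up by symbol among the 14166 genes of the bulk table and among the features of the nucleus matrices. Of the 10, 9 were found in both, and Cort, which encodes cortistatin, is not analysed here. The tissue was the dentate gyrus on the injured side of male Sprague Dawley rats aged 8 to 15 weeks, taken 3 weeks after lateral fluid percussion injury, a fluid pressure pulse onto the dura that models traumatic brain injury (TBI). Bulk RNA-seq covered 3 TBI and 3 sham rats, and single-nucleus RNA-seq (snRNA-seq) covered 2 TBI rats, 1 sham rat and 1 naive rat. TBI and sham rats both had a craniectomy days before the procedure, sham rats went through every step but the pulse, and the naive rat had no surgery. The sham and the naive rat together formed the control group of the nuclei, as in the study. The dentate gyrus was dissected by hand, so the libraries could hold neighbouring tissue.

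Neuropeptides are cut from larger precursors, stored in dense core vesicles and released on repetitive firing, after which they act through G protein-coupled receptors. In the dentate gyrus, somatostatin and neuropeptide Y come chiefly from hilar interneurons, vasoactive intestinal peptide (VIP) and cholecystokinin from other interneurons, and dynorphin and enkephalin from the granule cells, whose mossy fibres store both opioids. Granule cells are the principal neurons of the dentate gyrus, and mossy cells and pyramidal neurons of the adjoining CA fields are other excitatory neurons that a dissection can include.

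Upstream sequence from RefSeq (GRCr8) was held for 7 of the 10 genes, as windows of 300 bases around the transcript start. The cyclic AMP response element core, TGACGT or its reverse complement ACGTCA, was in the windows of Sst and Vip, and 7.94% of all 33469 windows hold it. The AP-1 motif, TGAGTCA or TGACTCA, was in the window of Nts, against 4.63% of all windows. In Sst both forms of the core overlap in 1 palindrome, whose first base is base 3 of the annotated transcript. Whether transcription begins at that annotated start was not tested. The Sst stretch of 30 bases around the start, chr11:90461535-90461564 on the plus strand, is shown because Sst was the member most abundant in interneuron nuclei, and the 250 bases before the starts of Pdyn (chr3:137366504-137366753, minus strand) and Nts (chr7:39460889-39461138, minus strand) because these genes spread most between the bulk libraries apart from Npy. Capitals mark the motifs, and the Pdyn stretch holds none of these letters.
Sst: gcgcctccttggcTGACGTCAgagagagag
Pdyn: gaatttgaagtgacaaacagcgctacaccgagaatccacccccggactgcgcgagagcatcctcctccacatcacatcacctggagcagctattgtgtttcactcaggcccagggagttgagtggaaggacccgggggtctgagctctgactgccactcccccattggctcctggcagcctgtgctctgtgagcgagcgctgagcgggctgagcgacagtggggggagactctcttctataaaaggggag
Nts: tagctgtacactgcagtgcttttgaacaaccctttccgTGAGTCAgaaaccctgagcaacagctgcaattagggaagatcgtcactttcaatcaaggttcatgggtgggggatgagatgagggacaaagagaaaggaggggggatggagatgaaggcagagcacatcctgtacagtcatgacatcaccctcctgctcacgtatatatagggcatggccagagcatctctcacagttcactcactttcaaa

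The bulk libraries held between 25121893 and 44649404 estimated counts. The nucleus matrices kept 55124 nuclei, with medians of 1647 to 2652 UMIs (unique molecular identifiers, which count molecules) per rat, and 45 to 60 cell barcodes were shared by each pair of rats. No gene of 14166 passed a false discovery rate (FDR) of 0.05 in edgeR's quasi-likelihood test of the bulk libraries, where 1360 genes had an unadjusted p below 0.05, and DESeq2 called 349. Markers of other cells moved with the groups. All 10 measured microglial markers were higher in the TBI libraries (median log2 fold change 1.09, summed level 673 to 1216 CPM in TBI and 390 to 425 CPM in sham), as were all 7 astrocyte markers (summed 6984 to 10450 CPM against 4043 to 4751 CPM). All 5 pericyte markers were higher (median 0.57, summed 124 to 190 CPM against 91.7 to 120 CPM), 3 of them without overlap and with an unadjusted p below 0.05. All 9 oligodendrocyte markers were lower (median -0.69), with overlapping groups (summed 5361 to 8363 CPM in TBI and 5687 to 17900 CPM in sham, highest in sham 2) and 1 unadjusted p below 0.05. The part of these cells in the values below was not tested.

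None of the 9 measured neuropeptide genes passed the test between TBI and sham dentate gyrus in bulk. The call at an FDR of 0.05 took 0% of all genes and 0 of the 9, and an unadjusted p below 0.05 took 9.6% of all genes (8.2% higher in TBI and 1.4% lower) and again 0 of the 9. Libraries of the 2 groups did not overlap for 14.7% of all genes and for none of the 9. By the sign of the log2 fold change 5 members were higher and 4 lower, with a median of 0.05 against -0.003 over all genes. The smallest unadjusted p was 0.299, for Crh, and the adjusted p-values ran from 0.794 to 0.996 (edgeR). In bulk tissue, fewer cells of a type and less RNA per cell cannot be told apart. The replicates were separate rats.

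Sst, the precursor of somatostatin, which is released by interneurons onto dendrites, stood at 91.3, 49.2 and 80.2 CPM (counts scaled to the same library total) in sham 1, 2 and 3 and at 78.9, 70.5 and 74.2 CPM in TBI 1, 2 and 3. The TBI libraries lay inside the sham range. The log2 fold change was -0.02 (SE 0.21, n = 3 against 3, adjusted p = 0.992 in edgeR). Cck, the precursor of cholecystokinin, was the steadiest member, at 166, 158 and 185 CPM in sham and 193, 178 and 188 CPM in TBI. Its highest library held 1.22 times its lowest, and its spread within groups lay at the 10.8th percentile of all genes. The Cck log2 fold change was 0.10 (SE 0.10, adjusted p = 0.833, edgeR), so a small standard error still left the groups overlapping.

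Vip, the VIP precursor of interneurons that mainly contact other interneurons, was at 14.9, 10.3 and 11.6 CPM in sham and 17.7, 9.67 and 13.0 CPM in TBI. The lowest and the highest library were both TBI, and the log2 fold change was 0.10 (SE 0.24). Tac1, which encodes substance P and neurokinin A, was low, at 4.04, 3.56 and 6.99 CPM in sham and 4.93, 4.44 and 8.69 CPM in TBI (log2 fold change 0.26, SE 0.36). In each group the third library was highest. Crh, corticotropin-releasing hormone, was the lowest of the fully counted members, at 1.14, 1.28 and 2.69 CPM in sham and 1.09, 1.08 and 1.602 CPM in TBI. Its log2 fold change of -0.49 (SE 0.44) rested on sham 3, without which it was 0.01.

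**Figure D1:**
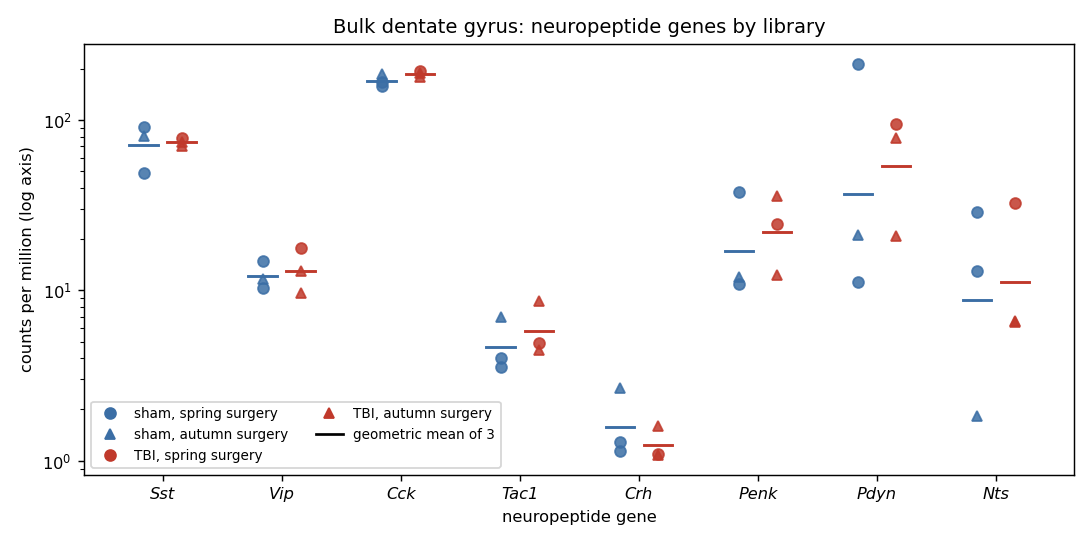
CPM (log axis) of 8 neuropeptide genes in the 3 sham (blue) and 3 TBI (red) bulk libraries, with a bar at the geometric mean of each group. Circles stand for rats injured in a month before July (spring) and triangles for those injured in a later month (autumn). The groups overlap for every gene drawn, Cck lies within 1.22-fold, and Pdyn and Nts spread over 19.2-fold and 17.7-fold.

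Npy, whose product neuropeptide Y is released by hilar interneurons, could not be read from its own row. It had an estimated count of 0 in sham 2 and TBI 3 (adjusted p = 0.969, edgeR). The deposited log2 CPM of Npy spanned 90.1-fold, a range whose low end was set by a prior count of 0.5 and the library total. Its estimated counts added to whole numbers within 0.001 with exactly 1 of 14166 genes, LOC100912228, in all 4 libraries where they were fractional, so reads were split between the pair. The sum of both rows, chosen after these values were seen, was 29.0, 14.9 and 19.9 CPM in sham and 24.1, 15.2 and 16.3 CPM in TBI. On that sum the TBI libraries again lay inside the sham range, with a log2 fold change of -0.23 (SE 0.27, adjusted p = 0.860, edgeR).

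Pdyn, the dynorphin precursor, spread widely between rats of the same group. It stood at 214, 11.2 and 21.0 CPM in sham and at 94.5, 20.9 and 78.5 CPM in TBI, so sham held both the highest and the lowest library. The spread within groups lay at the 99.0th percentile of all genes, and the log2 fold change of -0.37 had a standard error of 1.05. Without sham 1 the value was 1.94, and without TBI 2 it was 0.05. Penk, the enkephalin precursor, was at 37.6, 10.97 and 12.1 CPM in sham and 24.5, 12.3 and 36.0 CPM in TBI (log2 fold change 0.23, SE 0.54, 95.4th percentile of spread). Its 3 highest libraries were sham 1, TBI 1 and TBI 3, the same libraries in which Pdyn was highest.

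Markers of granule neurons were unequal over the same libraries. The mean deposited log2 CPM of the 8 measured granule markers was 5.57, 3.53 and 3.61 in sham and 4.95, 3.903 and 4.67 in TBI. C1ql2, a synaptic protein of mossy fibres, ran at 209, 14.9 and 28.1 CPM in sham and 128, 28.9 and 116 CPM in TBI, a 14.0-fold range. Prox1, the transcription factor that defines granule cells, spread 6.60-fold. Of the 8 markers 7 had their 3 highest libraries in sham 1, TBI 1 and TBI 3, all but Dsp, as did Pdyn, Penk and Vip and 15.9% of all genes. The ratio of Pdyn to C1ql2, a gene picked after its values were seen, lay between 0.676 and 1.03 in all 6 libraries, a 1.52-fold range where Pdyn alone spread 19.2-fold. Penk did not keep such a ratio, with 0.18 to 0.735 units for each unit of C1ql2.

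With the granule marker level of each library as a covariate, an alternative added after seeing the data, the Pdyn log2 fold change was -0.04 and its standard error 0.21, against 1.05 without it (adjusted p = 0.964, edgeR). For Penk the value was 0.15 with a standard error of 0.24, against 0.54 without it. Sst and Cck, at -0.06 (SE 0.18) and 0.10 (SE 0.10), moved little. Neither Pdyn nor Penk passed the threshold in either fit. Whether the granule marker level reflects the share of granule cells in a dissection was not tested.

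**Figure D2:**
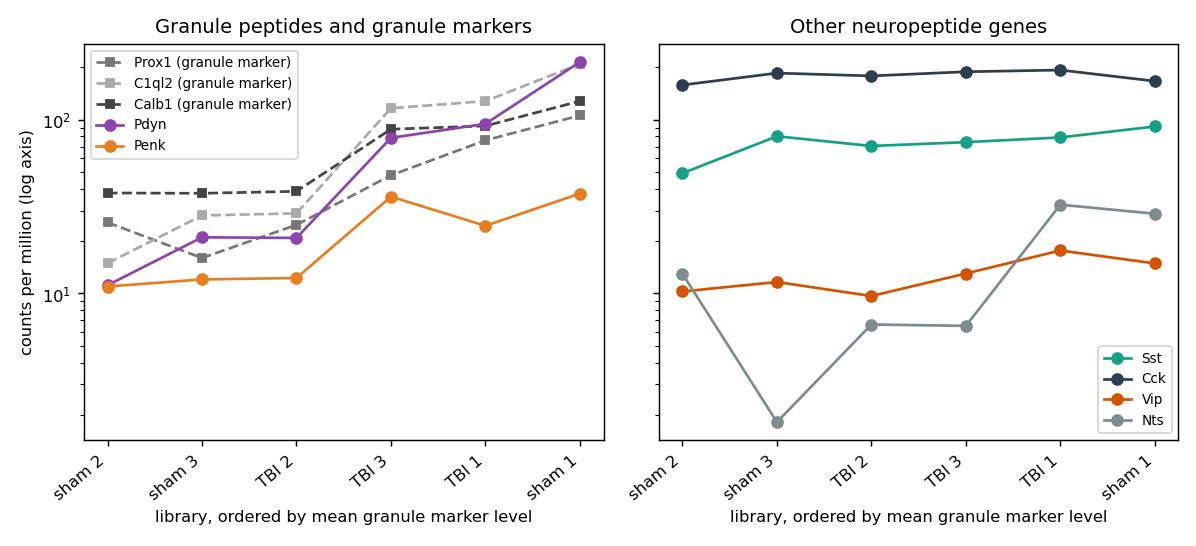
CPM (log axis) in the 6 bulk libraries, ordered from left to right by the mean level of the granule markers, with granule markers dashed and neuropeptide genes solid. Pdyn runs from 11.2 CPM in sham 2 to 214 CPM in sham 1 beside C1ql2, at 14.9 and 209 CPM, while Cck stays between 158 and 193 CPM and Nts follows another order.

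**Figure D3:**
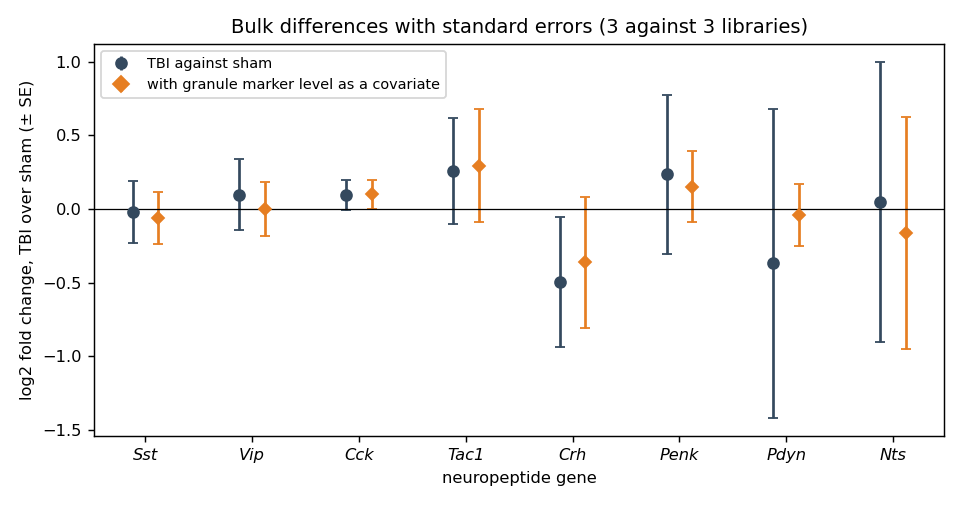
Log2 fold change of TBI over sham with its standard error for 8 neuropeptide genes (3 against 3 libraries), without and with the granule marker level of each library as a covariate. The standard error of Pdyn is 1.05 without and 0.21 with the covariate, and the Crh value without the covariate, -0.49 with an SE of 0.44, is the only one drawn farther from 0 than its error.

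Nts, the neurotensin precursor, was higher in every spring library than in any autumn one. Spring here stands for a date of injury in a month before July, and autumn for any later month. It was at 28.8 and 13.0 CPM in sham 1 and 2 and 32.4 CPM in TBI 1, all injured in spring, and at 1.82 CPM in sham 3 and 6.63 and 6.52 CPM in TBI 2 and 3, injured in autumn. The periods did not overlap, as for 8.78% of all genes. Autumn minus spring was -2.87 on the log2 scale (SE 0.42, unadjusted p = 0.00037 in edgeR), which did not pass adjustment (FDR 0.9999). The comparison was made after these values were seen. Among listed markers of other excitatory neurons, picked after their values were seen, Wfs1 and Tbr1 split the same way. The lowest Wfs1 library in spring was at 210 CPM (sham 2) and the highest in autumn at 144 CPM (TBI 3). For Tbr1 these values were 15.7 CPM (TBI 1) and 11.2 CPM (sham 3). Ociad2 was higher in autumn, and Neurod6 and Rspo2 overlapped. The part of neighbouring tissue in the Nts values was not tested. In mean deposited log2 CPM of Nts, TBI exceeded sham within each period, by 0.74 in spring (1 TBI library against 2) and by 1.85 in autumn (2 against 1). Pooled, the Nts log2 fold change was 0.35 on that scale (limma) and 0.05 (SE 0.95) in edgeR. Neither within-period value alone has a test. With the period as a covariate the Nts value was 1.16, with an unadjusted p of 0.0276 and an adjusted p of 0.728 (edgeR), in a fit where 906 of 14166 genes had an unadjusted p below 0.05 and none passed adjustment. For Pdyn, mean deposited log2 CPM was also higher in TBI within both periods, by 0.95 and 0.94, against 0.54 pooled on that scale. The edgeR fits gave -0.37 pooled and 0.45 with the period as a covariate (adjusted p = 0.966, edgeR). Single libraries did not separate. In spring, TBI 1 (94.5 CPM) lay between sham 1 (214.4 CPM) and sham 2 (11.15 CPM). In autumn, sham 3 (21.04 CPM) lay between TBI 2 (20.87 CPM) and TBI 3 (78.52 CPM).

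Receptors and processing enzymes of the peptides gave no call either. Of 23 receptor genes listed 20 were measured, and 0 passed the FDR threshold (6 higher, 14 lower, median log2 fold change -0.19, against -0.003 over all genes). Of these, 2 had an unadjusted p below 0.05, against 9.6% of all genes, namely the neurotensin receptor Ntsr2 at 92.7 CPM in sham and 135 CPM in TBI (0.51, SE 0.10) and the somatostatin receptor Sstr1 at 14.5 and 20.5 CPM (0.45, SE 0.19). Their adjusted p-values were 0.196 and 0.502 (edgeR). In the nuclei, Ntsr2 was at 36.1 CPM outside the neuron classes and at most 1.98 CPM within them, beside the astrocyte markers given above. The 12 measured genes of prohormone processing and dense core vesicles had a median of -0.09, and none had an unadjusted p below 0.05. Among 12 other peptide genes, Edn3 (1.65, SE 0.28, adjusted p = 0.196) and Crhbp, which binds corticotropin-releasing hormone (-0.35, SE 0.13, adjusted p = 0.440, edgeR), had an unadjusted p below 0.05. Interneuron genes such as Gad1 and Pvalb were lower in 11 of 14 cases (median -0.25), with no unadjusted p below 0.05.

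In the nuclei the members were placed in 3 classes of clusters, which were made without the neuropeptide genes. The granule-like class, of clusters with Prox1, held 29374 nuclei, the interneuron-like class, of clusters with Gad1 and Gad2, 3692, and the other excitatory class 4009. Of the markers, 8 of 9 were highest in the granule class, 12 of 12 in the interneuron class and 7 of 12 in the other excitatory class. The interneuron markers and Prox1, itself a granule marker, had served to name their classes, so these counts are not independent support. The other excitatory class held the clusters left over, and its name is the weakest. Interneuron nuclei made up 7.64% and 7.81% of the TBI rats' nuclei, 6.03% of the sham rat's and 5.25% of the naive rat's. The difference was 2.08 percentage points (exact permutation test over rats, two-sided, p = 0.3333, n = 2 against 2), the smallest p that 2 against 2 allows. Granule nuclei made up 51.2% and 44.9% in TBI, 54.7% in sham and 64.2% in naive, a difference of -11.44 points (exact permutation p = 0.3333).

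Sst marked 1 of the 3 interneuron clusters. Interneuron nuclei held 71.1% of all Sst UMIs, at 130 and 158 CPM in TBI 1 and 2, 90.4 CPM in sham and 276 CPM in naive, so the controls were both the lowest and the highest. In the cluster led by Il1rapl2 and Sst the levels were 290, 453, 211 and 565 CPM. The nuclei with at least 5 Sst UMIs, 13 and 23 in TBI, 4 in sham and 52 in naive, were all interneuron nuclei. None of the nuclei with at least 2 Sst UMIs in that class (96, 92, 66 and 122) held a Vip UMI, whereas 2.21% to 5.32% of the other interneuron nuclei did. A Sst UMI was found in 19.7% and 14.1% of interneuron nuclei in TBI and in 14.1% and 26.9% in sham and naive, a difference of -3.57 percentage points (exact permutation p = 1), and 2.81 points without the naive rat.

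Vip, Crh and most interneuron Cck shared another cluster, whose leading genes were Npas1, Reln and Adarb2. Vip stood at 39.7 and 113 CPM there in TBI and at 79.0 and 174 CPM in sham and naive, and Cck at 82.5 and 235 CPM and at 117 and 335 CPM. In both genes the naive rat was highest and TBI 1 lowest. Crh in this cluster was at 2.04 and 11.9 CPM in TBI and 2.29 and 18.4 CPM in sham and naive, from 39 UMIs in the whole interneuron class. Of interneuron nuclei with at least 2 Vip UMIs, 22.2% and 34.6% in TBI and 21.1% and 35.0% in sham and naive also held a Penk UMI, against 1.70% to 5.07% of the remaining interneuron nuclei. These shares rest on 9, 26, 19 and 20 nuclei. Tac1 lay in the Sst cluster and in the cluster led by Grik1 and Lamp5, with 78 UMIs over the class, at 8.63 and 6.30 CPM in TBI and 4.29 and 9.71 CPM in sham and naive.

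Cck was also found in other excitatory nuclei, with 26.8% of its UMIs, at 45.3 and 23.0 CPM in TBI and 37.1 and 55.8 CPM in sham and naive. A Cck UMI was in 14.2%, 7.07%, 10.5% and 21.6% of these nuclei. With entries of 0 in the matrix counted too, a Cck entry was in 14.7%, 13.5%, 12.4% and 26.4% of them. Entries of 0 were 6 of 166 in TBI 1, 58 of 122 in TBI 2, 26 of 176 in sham and 27 of 147 in naive. Oligodendrocyte nuclei, which should lack it, had a Cck UMI in 1.76%, 1.30%, 2.60% and 0.525%. Median depth was 3076.5 to 4679 UMIs in the other excitatory class. The class without its small cluster 15, which held 342 and 24 nuclei in TBI and 391 and 12 in sham and naive, gave a Cck log2 fold change of -0.61 (SE 0.39), against -0.51 (SE 0.37) with it.

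Granule nuclei, which held 54.1% of all UMIs, held 70.3% of those of Pdyn and 64.2% of those of Penk. Pdyn was at 34.5 and 18.7 CPM in TBI and 27.5 and 32.4 CPM in sham and naive, and a Pdyn UMI was in 8.33%, 3.30%, 5.63% and 8.86% of granule nuclei. Oligodendrocyte nuclei, which should lack it, held 21.9, 19.2, 14.9 and 12.5 CPM, and 3.14%, 1.95%, 2.08% and 2.36% of them had a UMI. The granule level was therefore 1.57, 0.972, 1.85 and 2.60 times the oligodendrocyte level, and in TBI 2 it did not exceed it. Nuclei thinned to 1000 UMIs, which left out 26 to 108 granule nuclei and 110 to 1052 oligodendrocyte nuclei of a rat, held a Pdyn UMI in 3.80%, 1.90%, 2.85% and 3.42% of granule and 2.07%, 3.03%, 0.986% and 1.85% of oligodendrocyte nuclei, so TBI 2 again stood apart. In that rat 5.55% of granule nuclei had a Pdyn entry when entries of 0 in the matrix were counted too, against the 3.30% with a UMI. Over 100 UMIs of Slc17a7, the vesicular glutamate transporter, Pdyn had 3.48 to 7.25 UMIs in granule nuclei and 4.52 to 7.99 in oligodendrocyte nuclei. Among oligodendrocyte clusters, cluster 16 held Prox1 at 336 CPM and a median of 2248.5 UMIs, against 242 CPM and 861.5 UMIs in cluster 5. It had 166 and 308 nuclei in TBI and 197 and 83 in sham and naive, and thinning kept 330 oligodendrocyte nuclei in TBI 2. The part of cluster 16 in the oligodendrocyte levels and shares was not tested.

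Penk was uneven among the 4 granule clusters. It stood at 21.9 and 26.0 CPM in TBI and 23.1 and 51.4 CPM in sham and naive in the cluster led by Robo3 and Serinc2, at 12.2 to 25.6 CPM in the cluster led by Ano2, and at 0 to 4.54 CPM in the other two. In every rat the order of the first 2 clusters was the same. Pdyn in the 4 clusters ran from 13.0 to 41.3 CPM. Over the whole class Penk was at 9.70 and 9.42 CPM in TBI and 9.24 and 17.1 CPM in sham and naive. Interneuron nuclei held 8.30 and 16.5 CPM in TBI and 8.22 and 18.2 CPM in sham and naive, more than granule nuclei in TBI 2 and the naive rat. A Penk UMI was in 2.41%, 2.94%, 2.06% and 6.08% of interneuron nuclei and in 2.39%, 1.59%, 1.81% and 4.21% of granule nuclei, so Penk did not mark the granule class as a whole. Oligodendrocyte nuclei held 3.50, 3.56, 14.0 and 6.93 CPM, so the sham rat's granule level did not exceed its oligodendrocyte level. Of granule nuclei with a Pdyn UMI, 2.25%, 0.939%, 2.11% and 4.98% also held a Penk UMI in TBI 1, TBI 2, sham and naive, against 2.40%, 1.62%, 1.80% and 4.13% of the other granule nuclei. These shares rest on 12, 2, 11 and 32 nuclei with both UMIs, and the differences were not tested.

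**Figure D4:**
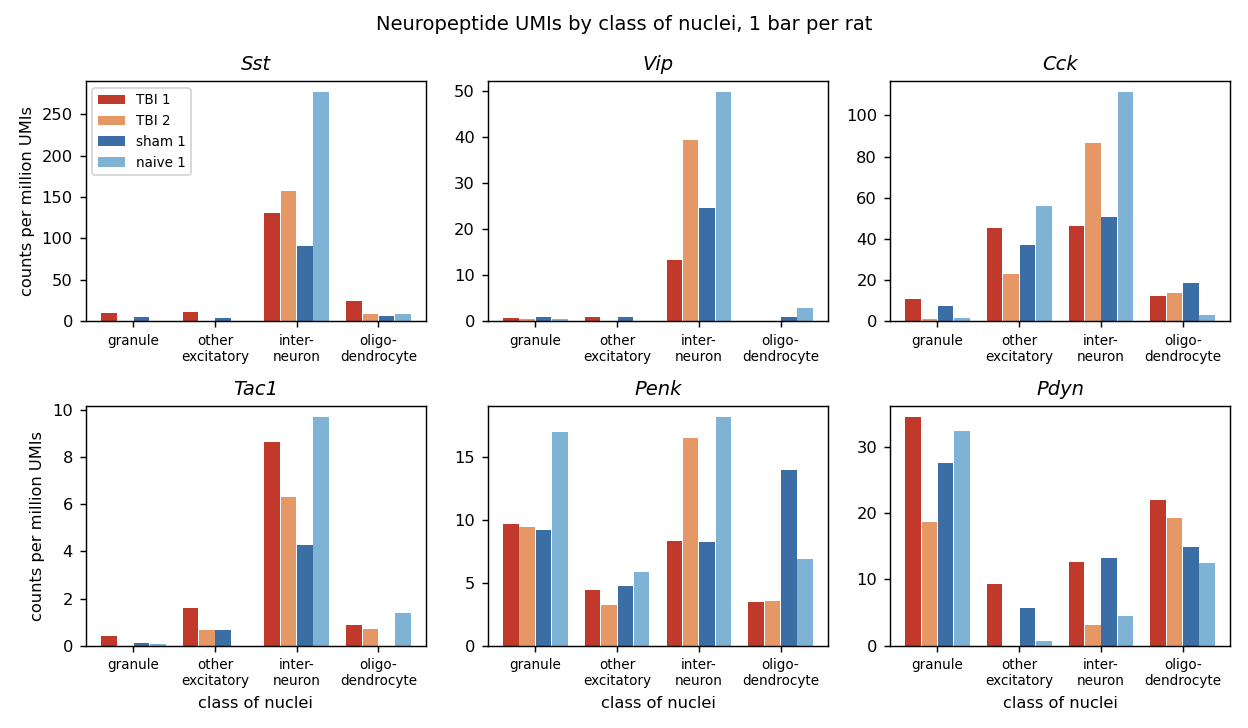
CPM of 6 neuropeptide genes in granule, other excitatory and interneuron nuclei and in oligodendrocyte nuclei, with 1 bar per rat. Sst, Vip and Tac1 are highest in interneuron nuclei in all 4 rats, and Pdyn in granule nuclei in TBI 1, sham and naive, with 12.5 to 21.9 CPM in oligodendrocyte nuclei.

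Npy and Nts were almost undetected in nuclei. Npy had 2 UMIs in all, both in interneuron nuclei of the Sst cluster, and the gene that shares its bulk reads, LOC100912228, had 21. No Npy UMI in the 9261 granule nuclei of the sham rat allows a share of nuclei with a UMI of up to 0.0324%, for counting error only, and sets no limit on nuclei that express the gene. Nts had 24 UMIs, of which 10 were in granule, 8 in other excitatory and 4 in interneuron nuclei, and no member was called from such counts.

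The deposited matrices hold entries with the value 0, whose share differed by gene, class and rat. For Sst and Cck these zeros were more frequent in granule than in interneuron nuclei. Over all entries they made up 1.63% and 27.4% in TBI 1 and 2, 11.1% in sham and 15.5% in naive. For Sst in granule nuclei they were 12 of 168 entries in TBI 1, 237 of 239 in TBI 2, 110 of 206 in sham and 312 of 312 in naive. In interneuron nuclei they were only 1 of 189, 43 of 202, 12 of 156 and 12 of 171. Hence a Sst UMI was in 2.44%, 0.0309%, 1.04% and 0% of granule nuclei, but an entry of any value in 2.62%, 3.70%, 2.22% and 4.30%. For the naive rat, no UMI in 7249 nuclei allows a share with a UMI of up to 0.0414% by counting error, which leaves out its 312 entries of 0 and sets no limit on expression. Zeros were not particular to these genes. In TBI 2 they were 381 of 391 Gad2 entries in granule and 34 of 758 in interneuron nuclei. For Pdyn in that rat they were 146 of 359 and 33 of 41, and for Penk 81 of 184 and 16 of 49.

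Cck in granule nuclei was likewise uneven by UMIs and not by entries, with a UMI in 2.70%, 0.186%, 1.54% and 0.455% and an entry in 2.94%, 3.03%, 2.59% and 2.98%. Interneuron nuclei kept most of theirs, with a Cck UMI in 9.11%, 7.03%, 8.33% and 13.0% and an entry in 9.42%, 10.2%, 9.01% and 15.2%. The sources used here give no step that made these zeros. Sst and Cck UMIs in granule nuclei, at 0 to 9.52 and 0.99 to 10.8 CPM, were below the oligodendrocyte level in every rat. They are not read as expression, and their source was not tested. With entries of 0 counted as detection, the Sst share of interneuron nuclei differed by -3.20 percentage points between TBI and control (exact permutation p = 1).

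**Figure D5:**
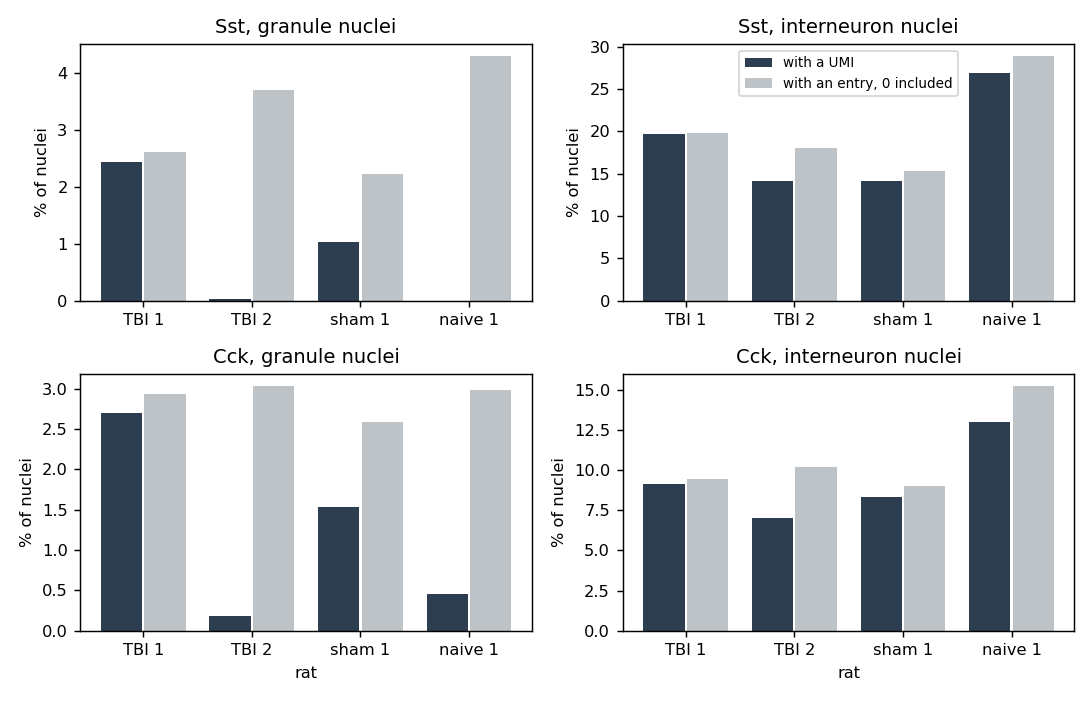
Percentage of granule (left) and interneuron (right) nuclei of each rat with a UMI of Sst or Cck (dark) and with any entry in the matrix, 0 included (light). In granule nuclei the share with a Sst UMI runs from 0% to 2.44% while the share with an entry runs from 2.22% to 4.30%. In interneuron nuclei the bars lie farthest apart in TBI 2, at 14.1% and 18% for Sst and 7.03% and 10.2% for Cck.

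Between TBI and control rats no neuropeptide gene passed the test in any class of nuclei. The call at an FDR of 0.05 took 0% of the genes in each class, and 0 of 5 members tested in granule, 0 of 4 in other excitatory and 0 of 7 in interneuron nuclei. An unadjusted p below 0.05 took 1.12%, 0.706% and 1.36% of genes and 0 members (edgeR on UMI sums per rat). In interneuron nuclei 6 of the 7 were lower in TBI, with a median log2 fold change of -0.36 against -0.02 over all 11224 genes, and none was without overlap between the groups, against 28.8% of all genes. The values were -0.43 (SE 0.48) for Sst, -0.57 (SE 0.58) for Vip, -0.36 (SE 0.46) for Cck, -0.66 (SE 0.97) for Crh, -0.16 (SE 0.57) for Penk and 0.02 (SE 0.59) for Tac1. The naive rat was highest for Sst, Vip, Cck, Crh, Penk and Tac1 in this class, and without it Sst stood at 0.64 and Vip at 0.07, with TBI then set against the sham rat alone.

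In granule nuclei Penk had a log2 fold change of -0.53 (SE 0.41) and Pdyn of -0.25 (SE 0.30), and the groups overlapped for all 5 members tested, where 27.8% of genes did not overlap. Without the naive rat Penk was at 0.01, and without TBI 2 Pdyn was at 0.06. In other excitatory nuclei Cck was at -0.51 (SE 0.37), and at -0.94 without TBI 1, -0.18 without TBI 2, -0.79 without the sham rat and -0.16 without the naive rat. Penk there was lower in both TBI rats (4.39 and 3.24 CPM) than in sham and naive (4.74 and 5.87 CPM), where 24.3% of all genes tested in the class had groups that did not overlap, and its log2 fold change was -0.52 (SE 0.62). The test did not call it (adjusted p = 0.9999, edgeR). These Penk values rest on 67 UMIs in the class. Oligodendrocyte nuclei held 3.50 and 3.56 CPM in TBI and 14.0 and 6.93 CPM in sham and naive, so only TBI 1 exceeded its oligodendrocyte level. Entries of 0 were 0 of 18 Penk entries in TBI 1, 13 of 20 in TBI 2, 3 of 25 in sham and 9 of 20 in naive.

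Across the 23 clusters, the genes whose mean log2(CPM + 1) ran most like a member were taken from 12986 genes, as a description over clusters that share libraries and depth. Sst was most like Il1rapl2 (Pearson r = 0.844), Vip like the serotonin receptor gene Htr3a (0.798), and Cck like the cannabinoid receptor gene Cnr1 (0.925). Pdyn was most like Rfx3 (0.889), which is itself a granule marker, and Penk like Adcy8 (0.73). Tac1 was most like Mpped1 (0.873), and Crh like the gastrin-releasing peptide receptor gene Grpr (0.924), where few UMIs carry the value.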

How the data were processed

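The 10 members and all lists were chosen with earlier results of these data known. Bulk polyA libraries were mapped by the authors with kallisto, and the deposited tables hold unnormalized estimated counts of 31715 transcripts and log2 CPM of 14166 genes left by filters on low counts and low variance. Sums of transcripts had been planned, but a full pairing of transcripts with genes was not used here, so gene counts were worked back from the deposited log2 CPM. They were rounded and tested with edgeR 4.0.16 (quasi-likelihood, TMM), Benjamini-Hochberg adjusted over all genes. The authors' comparison used DESeq2, run here (1.42.0) as an alternative beside limma 3.58.1. Date of injury came from a deposited table of animals, and months before July were called spring and later months autumn.

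The deposited UMI counts of each rat came from Cell Ranger, with intronic reads included (Rnor_6.0). Filters as in the study (a minimum of 500 UMIs and of 300 features, a complexity, log10 genes over log10 UMIs, of 0.8 or more, and no more than 5% mitochondrial or 2% ribosomal UMIs) kept 55124 of 55863 barcodes, 1 more than the study's text gives. Nuclei were integrated and clustered in Seurat 5.3.0, without neuropeptide genes among the variable features. Clusters were classed in steps, with names rebuilt here. Clusters led by mitochondrial genes stayed unnamed, and glial and vascular clusters were named by their markers. Interneuron clusters needed more Gad1 and Gad2 than Slc17a7 and Slc17a6, and raised interneuron markers. Immature granule clusters were then named by their markers and granule clusters by Prox1 of at least 200 CPM. The clusters left over formed the other excitatory class, for which no marker was required. No doublet caller was run. UMI sums per rat and class were tested with edgeR, and shares with exact permutation tests. Both count tests were checked on simulated data.

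Named genes were the members, the 3 genes most like each over clusters (the first is given, and that of Nts is not reported here) and lists summarised by counts, and others are said to have been picked after their values were seen. Sequences came from RefSeq. No sample column was left unmapped.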

Additional observations from a re-analysis of the deposited data

How the results depend on the processing

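No member passed an FDR of 0.05 in bulk or in any class of nuclei under the alternatives run, where the smallest adjusted p of a member was 0.332 in bulk and 0.6 in nuclei, so the threshold gave the same answer throughout while signs of small differences did not hold. Over all genes in bulk, DESeq2 called 349, DESeq2 with adjustment over genes with an unadjusted p below 0.05 alone 1525, edgeR's likelihood ratio test 372, the fit with the replicate block 61, with the granule marker level 2, without TBI 3 1 and the other fits 0. Over all genes in nuclei, calls without a filter on low sums numbered 48 in other excitatory and 24 in interneuron nuclei, without TBI 1 70 and 22, and without TBI 2 21 and 6, with 28 in granule nuclei without TBI 2, and the other fits, DESeq2 included, gave 0. With its group mean subtracted from every gene, deviations of same-numbered sham and TBI libraries correlated at 0.352, 0.173 and -0.03. The deviations of a group sum to 0 for each gene, so these values are not independent. Not every pair was alike in its deviations and the numbers were not taken to pair the rats, though pairs 1 and 3 also share the period of injury. Signs turned for Sst on the deposited log2 CPM (limma, 0.066), with library totals alone (0.019) and with the replicate block (0.0256), for Pdyn on the deposited log2 CPM (0.54), with the replicate block (0.51) and with surgery period as a covariate (0.45), and with the granule marker level for Vip (-0.00096) and Nts (-0.16). With classes gated on UMIs in place of clusters, Pdyn was at -0.0808 in other excitatory and 0.31 in interneuron nuclei, the share of other excitatory nuclei differed by -1.757 percentage points and the Tac1 share by 0.0733. Thinned to 1000 UMIs, shares differed by 0.18 for Pdyn, 0.191 for Tac1 and 0.0035 for Crh. The cause of these turns was not tested.

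Leaving out 1 bulk library at a time, the log2 fold change ran from -0.24 to 0.15 for Sst, -0.15 to 0.26 for Vip, -0.15 to 1.02 for Penk, -0.89 to 1.94 for Pdyn, -0.0900 to 0.62 for Tac1, -0.72 to 0.0059 for Crh, -1.17 to 1.01 for Nts and -1.64 to 1.23 for Npy. Leaving out 1 rat, where a lone rat is assumed to vary like the others, it ran in granule nuclei from -2.17 to 1.68 for Cck, -0.68 to 0.0625 for Pdyn, -0.92 to 0.0133 for Penk, -3.84 to 9.24 for Sst and -0.83 to 0.13 for Vip. In interneuron nuclei it ran from -0.92 to 0.37 for Cck, -1.84 to 0.71 for Crh, -1.51 to 0.73 for Pdyn, -0.78 to 0.56 for Penk, -1.03 to 0.64 for Sst, -0.47 to 0.76 for Tac1 and -1.60 to 0.0675 for Vip, and in other excitatory nuclei from -0.94 to -0.16 for Cck, -6.52 to 2.47 for Pdyn and -2.45 to 3.61 for Sst. Shares of interneuron nuclei with a UMI differed by -9.94 to 2.81 points for Sst, -1.79 to 0.227 for Vip, -3.41 to 0.615 for Penk, -1.93 to 1.34 for Pdyn, -1.59 to 0.54 for Tac1 and -1.71 to 0.165 for Crh, and the share of other excitatory nuclei by -0.755 to 2.72 points. With 2 rats against 2, exact permutation cannot go below 0.3333, so those p-values say nothing of stability, and Crh, Tac1, Nts and Npy rest on few UMIs in the nuclei.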
